A study of Mus musculus with 2 samples.

Results

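The genes described here, Mgat4a, Mgat1, Mgat5, Siae, Cmah, St6gal1, St3gal1, B4galt1, Neu1 and Nans, build, cap or trim the branched sugar chains of glycoproteins and the sialic acids at their ends. They are 10 of the 35976 gene rows measured. The set was chosen from measured values, since Mgat4a and Siae had been seen to be higher in deleted hosts and Cmah to be higher in resting-like cells. These patterns are therefore described without a test, and nothing is supported with them.

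The cells were OTII CD4 T cells, which carry a transgenic receptor for ovalbumin, sorted singly from spleen on day 7 after CAS and a second priming; the labels do not explain CAS. The deleted hosts were 3 pooled mice of the strain labelled IL13Ra1f/f, CD11cCre/+, and the control hosts were 2 pooled mice of the strain C57BL/6. The series addresses how the interleukin-13 receptor of host dendritic cells bears on the differentiation of transferred T cells. CD11c-Cre acts mainly in dendritic cells, and the deletion was in the hosts and not in the transferred cells. Both groups received the same transferred cells and the same priming, and live cells (without propidium iodide) that carried CD4 and V beta 5.1/5.2 were sorted. No marker that tells donor from host was named, so host CD4 cells with this V beta could also pass.

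Each group was 1 pooled sample, spread over 4 plates of 92 cell wells. The deleted pool held 368 cells with 542650671 reads in genes, and the control pool held 368 cells with 573105030 reads. Plates had 125197307 to 148025125 reads. Plates of a pool are splits of the same animals and not replicates, and plate and pool cannot be told apart. There was no test between groups, and intervals cover counting error only. Those of levels take reads, PCR copies included, as separate counts and leave out the spread between cells. Of 736 cells, 733 were positive for at least 2 of the 7 measured CD4 T cell markers, most of which other T cells share. The summed level of these markers was 5040 CPM in deleted hosts and 5054 CPM in control hosts. Cd4 itself was positive in 229 deleted and 248 control cells. CPM is the number of reads per 1000000 reads in genes. A gene counts as positive in a cell where its level reaches 10 CPM and also 5% of its plate mean. At the median depth, 10 CPM is 15.3 reads. No well labelled noinput or dw held more than 4 reads of any of the 10 genes, and 9 of 1235 positive calls rested on 4 reads or fewer.

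N-glycans are sugar chains attached to asparagine residues of proteins in the secretory pathway. In the Golgi, mannoses are trimmed, Mgat enzymes add N-acetylglucosamine to start branches, galactose extends the branches and sialic acid caps them. On T cells, galectins bind the branched chains and hold receptors apart, and mice that lack Mgat5 have T cells that respond more readily. Sialic acids are made in the cytosol, moved onto glycoproteins by sialyltransferases, and taken off again by sialidases such as Neu1.

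The 250 bases before the annotated start are shown for Mgat4a and Mgat1, which had the highest and the lowest log2 ratio of the 3 Mgat genes, and for Cmah, chosen for its pattern in resting-like cells. RefSeq promoters on GRCm38.p6 were at hand for 7 of the 10 genes. Mgat4a lies on the minus strand, and its window is chr1:37541017-37541266. Mgat1 lies on the plus strand, with the window chr11:49243941-49244190, and Cmah on the plus strand, with chr13:24327154-24327403. Capitals mark matches on either strand to the GC box GGGCGG, the CCAAT box CCAAT, the ETS motif CCGGAA, the AP-1 motif TGANTCA and the TCF/LEF motif ATCAAAG. These motifs were picked after the sequences had been seen, and a match is a description, not a site.
Mgat4a: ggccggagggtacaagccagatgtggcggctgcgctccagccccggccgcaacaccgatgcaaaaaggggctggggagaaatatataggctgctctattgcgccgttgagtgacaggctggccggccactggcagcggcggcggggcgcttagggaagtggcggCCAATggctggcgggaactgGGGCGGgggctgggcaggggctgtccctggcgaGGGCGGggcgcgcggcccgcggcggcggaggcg
Mgat1: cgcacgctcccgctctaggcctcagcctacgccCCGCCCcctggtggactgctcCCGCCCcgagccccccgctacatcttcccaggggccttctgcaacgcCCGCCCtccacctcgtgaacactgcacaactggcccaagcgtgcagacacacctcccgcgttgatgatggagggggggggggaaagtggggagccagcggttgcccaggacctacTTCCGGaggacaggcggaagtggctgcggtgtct
Cmah: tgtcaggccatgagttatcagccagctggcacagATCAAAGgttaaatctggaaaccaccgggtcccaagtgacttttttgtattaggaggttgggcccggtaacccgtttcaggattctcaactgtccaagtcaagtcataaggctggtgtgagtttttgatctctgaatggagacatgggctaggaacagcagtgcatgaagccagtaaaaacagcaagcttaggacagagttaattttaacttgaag

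The Mgat4a window had 72.4% G or C with 26 CG pairs, 2 GC boxes and 1 CCAAT box. The Mgat1 window had 68.8% G or C with 18 CG pairs, 3 GC boxes on the minus strand and 1 ETS motif. The Cmah window had 45.6% G or C with 3 CG pairs and 1 TCF/LEF motif, and none of the 3 held the AP-1 motif. Over 32851 promoter windows of the same length, the medians were 52.4% G or C and 6 CG pairs. The GC box was in 32.7% of windows, CCAAT in 33.9%, ETS in 12.03%, AP-1 in 6.75% and TCF/LEF in 3.21%. The Cmah window thus had fewer CG pairs than the median window, and the Mgat4a and Mgat1 windows had more.

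Mgat4a and Siae were higher in cells from deleted hosts, by 4.15-fold and 4.38-fold in CPM, and the other 8 genes were within 2-fold with overlapping plates. Mgat1, the enzyme that opens the pathway to branched chains, was the lowest relative to control hosts, at just under 2-fold lower. Of the 10 genes, 2 were 2-fold or more higher with every deleted plate above every control plate. Among the 7207 genes at 20 CPM or more in either pool, 2.75% were 2-fold or more higher, 1.82% had every deleted plate above every control plate and 0.722% met both conditions. None of the 10 was 2-fold or more lower, against 3.16% of all genes, and none had every deleted plate below every control plate, against 2.86%. Since the first 2 genes were picked on this contrast, nothing is read from their count. Of all 10 genes, 3 had a higher level in deleted hosts and 7 a lower one, with a median log2 ratio of -0.21 against -0.04 over all 7207 genes. The log2 ratio is that of CPM + 1 in deleted over control hosts, so it understates the change of low genes.

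Mgat4a encodes the enzyme that adds a second N-acetylglucosamine to the arm that Mgat1 first extends. On deleted plates 1 to 4 it stood at 57.6, 43.0, 75.8 and 78.9 CPM, and on control plates 1 to 4 at 5.29, 5.25, 13.7 and 36.6 CPM. All 4 deleted plates lay above all 4 control plates, and control plate 4 was the highest of its pool. The level over the pool was 64.3 CPM in deleted hosts (95% Poisson interval 63.6 to 64.9) and 15.5 CPM in control hosts (15.2 to 15.8), and the log2 ratio was 1.99. Leaving out control plate 4 gave 2.84.

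Few cells carried Mgat4a. It was positive in 23 of 368 cells from deleted hosts (6.25%, Clopper-Pearson 95% interval 4.003 to 9.23%) and in 16 of 368 from control hosts (4.35%, 2.51 to 6.96%). These intervals overlap, and the larger gap was in the level per positive cell. The median positive cell had 1149 CPM in deleted hosts and 253 CPM in control hosts, and 13 deleted cells but 1 control cell reached 1000 CPM. Of the 23 deleted cells, 1 rests on a single read in a well of 9905 reads, the only cell well under 10000. At 100 CPM or more, a level set after the values were seen, 23 deleted and 12 control cells counted as positive. All 39 positive cells were positive for 2 or more CD4 T cell markers.

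**Figure D1:**
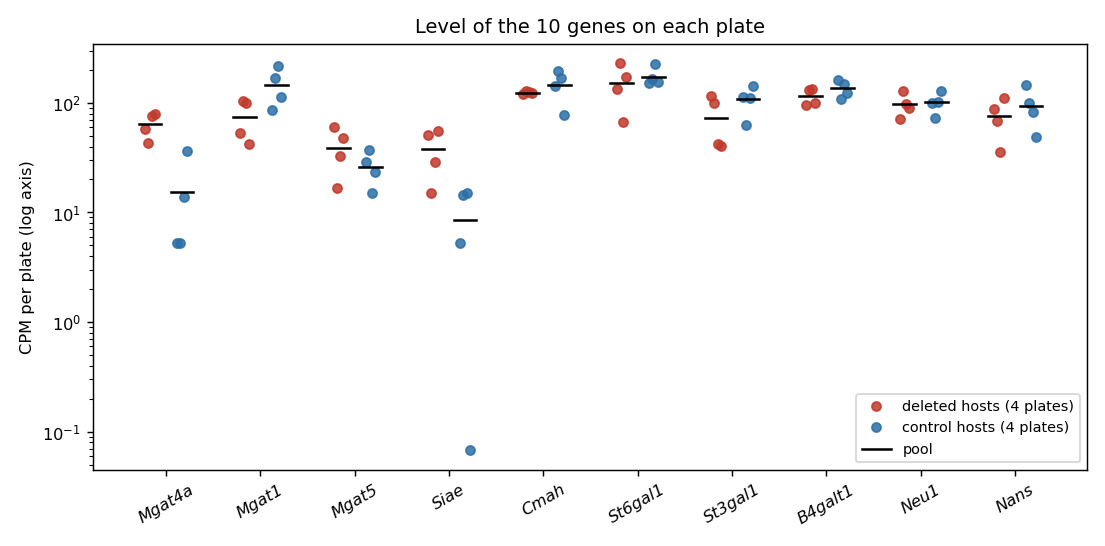
Level of each of the 10 genes on each plate, in CPM on a log axis, with deleted hosts (red) left of control hosts (blue); each point is 1 plate of 92 cells and each line the whole pool. For Mgat4a and Siae all deleted plates lie above all control plates, and for the other 8 genes the plates overlap.

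Siae encodes an esterase that removes acetyl groups from sialic acids, which are put on by Casd1. It had 50.8, 15.1, 28.7 and 55.8 CPM on deleted plates 1 to 4, and 5.28, 14.5, 15.04 and 0.07 CPM on control plates 1 to 4. The pools were apart by a narrow margin, with 15.11 CPM on deleted plate 2 and 15.04 CPM on control plate 3. The pool level was 37.6 CPM in deleted hosts (37.1 to 38.1) and 8.58 CPM in control hosts (8.34 to 8.83), a log2 ratio of 2.01.

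The share of Siae-positive cells was similar in both pools, and its direction depended on the level set for a positive cell. There were 8 positive cells in deleted hosts (2.17%, 0.943 to 4.24%) and 10 in control hosts (2.72%, 1.31 to 4.94%), with overlapping intervals. At 5 reads or more there were 8 deleted and 11 control cells, and at 1 CPM or more 22 deleted and 18 control cells. At 100 CPM or more, a level set after the values were seen, there were 8 deleted and 5 control cells. The 8 deleted cells had 3973, 2683, 2575, 1970, 1563, 1520, 683 and 213 CPM. The 10 control cells had 832, 666, 600, 390, 351, 93.4, 20.3, 15.5, 13.3 and 11.04 CPM. Of the deleted cells 6 thus had more than any control cell. A few cells held most of the Siae reads: the highest cell held 29.5% of the reads in deleted hosts and 32.8% in control hosts. Leaving out the highest cell of each pool kept the log2 ratio at 2.02, but the plates then overlapped. The pool levels were then 26.6 CPM in deleted hosts and 5.78 CPM in control hosts. Each of the 18 positive cells was positive for 2 or more CD4 T cell markers.

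**Figure D2:**
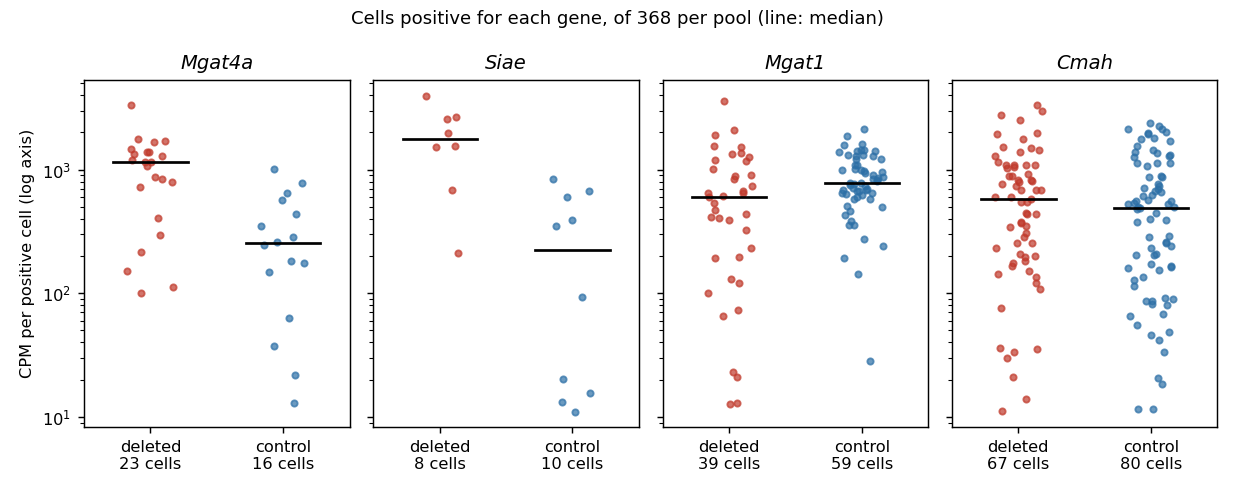
CPM of every positive cell, on a log axis, for Mgat4a, Siae, Mgat1 and Cmah, with deleted hosts (red) left of control hosts (blue); the line is the median over positive cells. For Mgat4a the medians are 1149 CPM in deleted hosts and 253 CPM in control hosts, and for Siae 1766 CPM in deleted hosts and 222 CPM in control hosts.

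Reads of Siae could in part belong to a neighbour. In the GENCODE M21 annotation it spans chr9:37555698-37649655 on the plus strand, and its last exons overlap Tbrg1 on the opposite strand. The strand setting of the counting is not given in the sources used here. Tbrg1 had 145 CPM in deleted hosts and 152 CPM in control hosts. Of the 18 Siae-positive cells 4 were Tbrg1-positive (22.2%), against 22.7% of all cells. Spa17, which also overlaps Siae on the opposite strand, had 0.66 CPM in deleted hosts and no reads in control hosts, and no Siae-positive cell was positive for it. Nans overlaps Trim14 in the same way, with 12 of the 111 Nans-positive cells also Trim14-positive (10.8%, against 11.5% of all cells).

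The summed level of the dendritic-cell markers was higher in deleted hosts, mainly through 1 gene, although single T cells were sorted. It was 45.8 CPM in deleted hosts (plates 42.3 to 51.2 CPM) and 33.0 CPM in control hosts (plates 24.0 to 39.0 CPM). Most of it was H2-Ab1, with 37.4 CPM in deleted hosts and 28.5 CPM in control hosts and positive calls in 365 deleted and 349 control cells, and 2 of the 6 markers reached 5 CPM; none was at exactly 0, and Siglech and Xcr1 were under 0.2 CPM in both pools. Of all cells, 12 were positive for 2 or more dendritic-cell markers. Among them were 1 of the 39 Mgat4a-positive cells and 0 of the 18 Siae-positive cells. Markers of other lists were also read at a low level in many cells. Lyz2 was positive in 285 deleted and 223 control cells, and Hba-a1 in 123 deleted and 108 control cells. The summed level of the myeloid markers, with Lyz2, was 25.1 CPM in deleted hosts and 25.7 CPM in control hosts. The cause was not tested. The CD8 T cell markers had a summed level of 9.47 CPM in deleted hosts (plates 0.31 to 16.1 CPM) and 26.5 CPM in control hosts (plates 13.7 to 41.7 CPM). Nearly all of it was Cd8b1, positive in 7 deleted and 16 control cells, and no cell was positive for both CD8 markers.

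The other branching enzymes had their plates mixed. Mgat1, which adds the first N-acetylglucosamine, had 53.6, 104, 98.8 and 42.3 CPM on deleted plates 1 to 4 and 85.3, 168, 216 and 112 CPM on control plates 1 to 4. Only deleted plates 2 and 3 reached into the control range, above control plate 1. The pool level was 74.6 CPM in deleted hosts and 145 CPM in control hosts, a log2 ratio of -0.95, just inside the 2-fold bound. Mgat1 was positive in 39 deleted cells (10.6%, 7.65 to 14.2%) and 59 control cells (16.03%, 12.4 to 20.2%), with medians of 602 CPM in the deleted and 777 CPM in the control cells. With 1 plate left out the log2 ratio lay between -1.14 and -0.69, so it fell past 2-fold in some of these settings.

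Mgat5, which adds the branch that galectins bind best once extended, had a pool level of 39.0 CPM in deleted hosts and 26.0 CPM in control hosts. Its plates ran from 16.8 to 60.3 CPM in deleted hosts and from 15.05 to 36.9 CPM in control hosts. The log2 ratio was 0.57, with 42 positive cells in deleted hosts and 40 in control hosts. B4galt1, which adds the galactose that sialic acid caps, was the gene read in most cells, with 179 positive cells in deleted hosts (48.6%) and 166 in control hosts (45.1%). Its level was 115 CPM in deleted hosts and 136 CPM in control hosts, with overlapping plates and a log2 ratio of -0.24.

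Both sialyltransferases were lower in deleted hosts by less than the spread between plates. St6gal1, which caps the galactose of N-glycans, had 134, 230, 67.3 and 171 CPM on deleted plates 1 to 4 and 151, 164, 225 and 157 CPM on control plates 1 to 4. Both the highest and the lowest plate were deleted plates. The pool level was 151 CPM in deleted hosts and 174 CPM in control hosts, a log2 ratio of -0.21, and the direction turned to 0.04 with deleted plate 3 left out. St6gal1 is also strong in B cells, but no cell was positive for 2 or more of the 7 B cell markers, whose summed level was 6.33 CPM in deleted hosts and 5.12 CPM in control hosts. St3gal1, which caps the core of O-glycans, had 117, 100, 42.3 and 40.5 CPM on deleted plates 1 to 4 and 114, 62.2, 110 and 142 CPM on control plates 1 to 4. Its share of positive cells was nearly equal, at 67 cells in deleted hosts and 68 in control hosts, while its pool level was 73.3 CPM in deleted hosts and 108 CPM in control hosts. The log2 ratio was -0.55.

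Sialic acid supply and removal differed little between the pools. Nans, the enzyme that makes the sialic acid backbone, had 75.4 CPM in deleted hosts (plates 35.3 to 110 CPM) and 93.7 CPM in control hosts (plates 49.0 to 144 CPM), a log2 ratio of -0.31. Neu1, the lysosomal sialidase, had 97.1 CPM in deleted hosts (plates 70.6 to 129 CPM) and 102 CPM in control hosts (plates 73.2 to 129 CPM), a log2 ratio of -0.07. Cmah, which turns the acetyl form of activated sialic acid into the glycolyl form and is known to fall in mouse B cells of germinal centres, had 121, 127, 125 and 123 CPM on deleted plates 1 to 4. Control plates 1 to 4 had 142, 194, 168 and 77.4 CPM of Cmah. The deleted plates were thus close together, inside a wide control range. The pool level was 124 CPM in deleted hosts and 144 CPM in control hosts, a log2 ratio of -0.22, with 67 positive cells in deleted hosts and 80 in control hosts.

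Per kilobase of exon and over both pools, the order was St6gal1 (33.1 CPM per kilobase), B4galt1 (29.7), Neu1 (26.7), Mgat1 (23.4), Nans (18.5), St3gal1 (13.3), Cmah (12.6), Mgat5 (3.14), Mgat4a (3.04) and Siae (2.16). The last 3 stood apart from the rest in both pools, while the order within the 2 groups depended on the pool. Mgat4a was the highest of the last 3 in deleted hosts, with 4.99 CPM per kilobase, and stood below Mgat5 in control hosts, with 1.20 against 2.52. Mgat1 had 15.8 CPM per kilobase in deleted hosts, below Nans with 16.5, and 30.6 in control hosts, above Nans with 20.4. Cmah stood above St3gal1 in deleted hosts and below it in control hosts. Exon lengths are from GENCODE M21, and the annotation behind the counts is not given in the sources used here.

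Cells often held several of the genes. In each pool 57 of 368 cells (15.5%, 11.9 to 19.6%) were positive for none of the 10, and 176 deleted and 199 control cells were positive for 2 or more, with at most 6 genes in a cell. Mgat4a and Siae were together in 1 cell, a control cell. St6gal1 and St3gal1 were together in 44 cells, or 26.8% of the St6gal1-positive cells and 32.6% of the St3gal1-positive cells, where 18.3% of all cells were St3gal1-positive. Over the 736 cells, correlations of log2(CPM + 1) between the 10 genes, after taking out plate means, ran from -0.07 to 0.08. In sparse single-cell reads a gene at 0 may have been missed, so these values describe reads, not cells that lack a gene.

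Among 6607 genes positive in at least 5% of cells, the 3 most like Mgat4a over the 736 cells were Bmt2, Hccs and Spg20, with Pearson r of 0.15 for each. For Siae they were Timm17a (0.16), Pde4d (0.15) and Vac14 (0.14), and for Cmah they were Stk38, Fam65b and Cep44 (0.14 each). The other genes of the set had similarly low best matches. Correlations of this size in sparse counts over cells that share a plate and a library are no finding.

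Cmah was read in more cells at the resting end than at the activated end of a score of resting against activated genes. For each cell, a score was taken as the mean log2(CPM + 1) over 12 resting genes, such as Ccr7, Lef1 and Klf2, minus that over 14 activated genes, such as Cd44, Icos and S100a6. The 30 cells of highest score on each plate are called the resting end and the 30 of lowest score the activated end. They are ranges of a score and not cell types, and 183 cells lay within 0.25 of one of the cut points. Not every score gene followed the score. The resting gene Il7r had 86.5 CPM and 25 positive cells at the resting end, and 124 CPM and 43 positive cells at the activated end. In control hosts the resting gene Dapl1 had 2.43 CPM at the resting end and 5.23 CPM at the activated end. Over both pools, the levels of all score genes but Il7r went with their list. Cmah was positive in 65 of 240 cells at the resting end (27.1%) and in 33 of 240 at the activated end (13.8%). Its level was 195 CPM at the resting end and 88.8 CPM at the activated end, a log2 ratio of 1.13 for resting over activated.

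The pattern of Cmah was seen in both pools but not on every plate. In deleted hosts 30 of 120 cells at the resting end and 15 of 120 at the activated end were positive, and in control hosts 35 of 120 at the resting end and 18 of 120 at the activated end. On deleted plates 1 to 4 there were 7, 11, 8 and 4 positive cells at the resting end and 6, 2, 2 and 5 at the activated end. On control plates 1 to 4 there were 8, 13, 9 and 5 at the resting end and 6, 5, 4 and 3 at the activated end. The share was thus higher at the resting end on 7 of 8 plates, all but deleted plate 4, as it was on 7 or more plates for 0.635% of the 6770 genes with 20 CPM or more outside the score. The level was higher on 6 of 8 plates, the exceptions being deleted plate 4 and control plate 1. For comparison, 1.37% of the 6770 genes had a higher level at the resting end on 8 of 8 plates and 1.96% a lower one. Cmah was picked for this pattern, so nothing is read from these counts.

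Cells at the resting end had fewer genes read. The median number of genes with 5 or more reads was 1406 at the resting end and 1774 at the activated end in deleted hosts, and 1472 at the resting end and 1762 at the activated end in control hosts. Of the 6770 genes, 18.2% had more positive cells at the resting end, and Cmah, Mgat4a and Neu1 were among them. Mgat4a was positive in 14 cells at the resting end and 6 at the activated end, and Neu1 in 33 cells at the resting end and 32 at the activated end. The other 7 genes had fewer positive cells at the resting end.

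**Figure D3:**
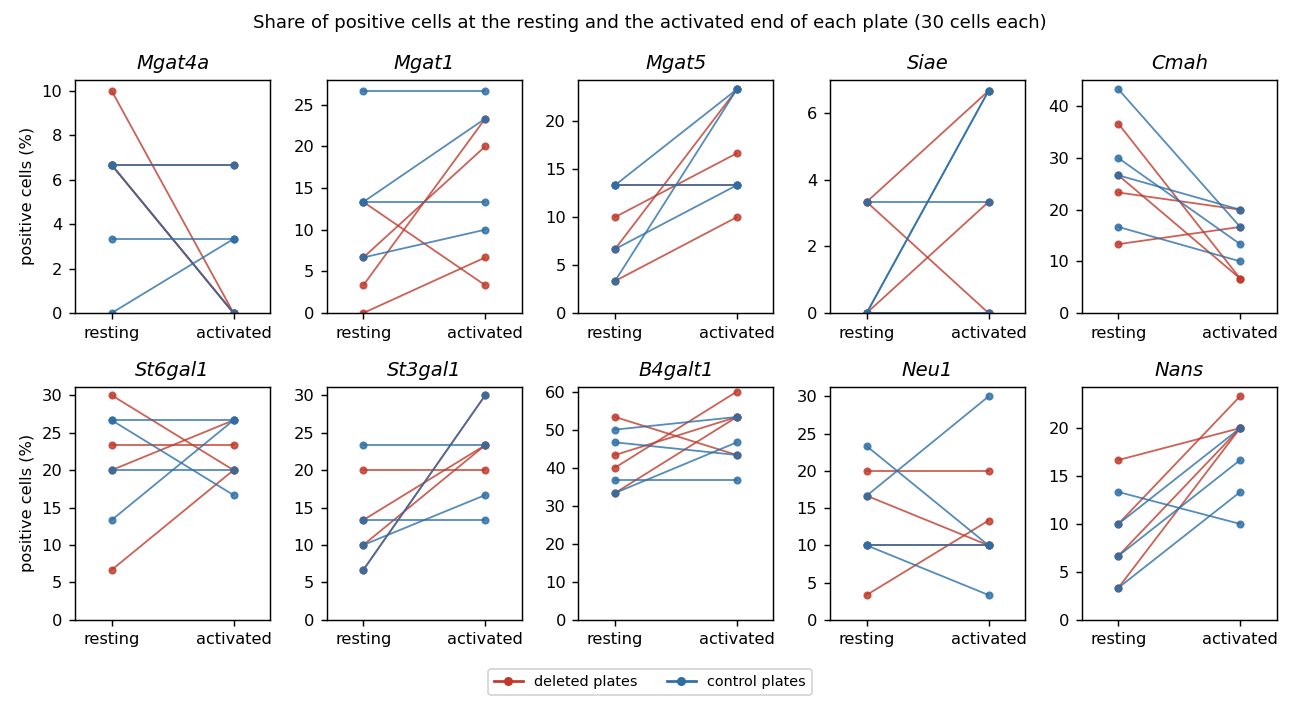
Share of positive cells, in percent from 0, at the resting end (left) and the activated end (right) of each plate for the 10 genes; each line is 1 plate with 30 cells at each end, red for deleted and blue for control hosts. The Cmah lines go down to the right on 7 of 8 plates, and the Nans lines go up on 7 of 8.

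Nans, Mgat5 and St3gal1 were among the 7 genes of the set with more positive cells at the activated end. Of the 6770 genes, 18.2% had more positive cells at the resting end. Nans was positive in 21 of 240 cells at the resting end and 43 at the activated end, with a lower share at the resting end on 7 of 8 plates. A lower share on 7 or more plates was found for 15.9% of the 6770 genes, so this count alone does not set Nans apart. Its level was 56.9 CPM at the resting end and 84.0 CPM at the activated end, a log2 ratio of -0.55. Mgat5 was positive in 21 cells at the resting end and 41 at the activated end, with levels of 27.1 CPM at the resting end and 51.7 CPM at the activated end. St3gal1 had 31 positive cells at the resting end and 54 at the activated end, but levels of 96.5 CPM at the resting end and 94.0 CPM at the activated end, so its fewer resting cells held more reads each. The log2 ratio turned to 0.14 for Nans when each plate was split at its middle, and to 0.06 for Mgat5 with the score over the activated list alone.

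Summed over each pool, Mgat4a was higher in deleted hosts in all 3 ranges of the score, by least at the activated end. At the resting end Mgat4a had 77.5 CPM in deleted hosts and 13.9 CPM in control hosts, a log2 ratio of 2.40. In the cells between the ends it had 95.8 CPM in deleted hosts and 18.1 CPM in control hosts, a log2 ratio of 2.34, and at the activated end 21.6 CPM in deleted hosts and 14.1 CPM in control hosts, a log2 ratio of 0.58. These values rest on 9 positive cells in deleted and 5 in control hosts at the resting end. Between the ends they rest on 11 deleted and 7 control cells, and at the activated end on 2 deleted and 4 control cells. Nearly all of the deleted level at the activated end came from deleted plate 3. There, deleted plates 1 to 4 had 0.41, 0.33, 80.8 and 0.41 CPM. Control plates 1 to 4 had 8.22, 1.20, 0.35 and 47.1 CPM at that end. The gap between the 3 log2 ratios was not tested. With both pools merged, the resting over activated log2 ratio of Mgat4a was 1.28. It was 1.80 in deleted hosts and -0.03 in control hosts. Its level was higher at the resting end on 4 plates and lower on 4. With the score over the activated list alone, the merged value was -0.27. Siae was higher in deleted hosts in all 3 ranges, with 37.7 CPM in deleted and 0.84 CPM in control hosts at the resting end, and 32.2 CPM in deleted and 6.89 CPM in control hosts at the activated end. Between the ends it had 43.0 CPM in deleted and 16.9 CPM in control hosts. These levels rest on 1 to 5 positive cells each.

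The rest of the glycan pathway showed no common shift between hosts. Of 115 listed genes, 81 had 5 CPM or more in either pool, and their median log2 ratio was -0.07. Without the 10 genes above, 71 were left, with a median of 0.02, and 36 of them had a higher and 35 a lower level in deleted hosts. Of these 71, 1 was 2-fold or more higher in deleted hosts and 4 were 2-fold or more lower, against 5.98% and 6.71% of the 9764 genes at 5 CPM or more. Every deleted plate lay above every control plate for 1 of the 71 and below for 2, against 1.81% and 2.60% of the 9764 genes. The lists were drawn up with earlier results of these data known.

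The mannosidases Man2a1 and Man2a2, which act between Mgat1 and the later branching enzymes, were lower in deleted hosts on all plates. Man2a1 had 12.3, 1.92, 5.99 and 0.43 CPM on deleted plates 1 to 4 and 20.5, 15.6, 25.3 and 23.1 CPM on control plates 1 to 4, a log2 ratio of -1.90. Man2a2, its close relative with the same activity, had 21.9, 21.2, 15.7 and 13.7 CPM on deleted plates 1 to 4 and 29.7, 32.4, 35.7 and 39.1 CPM on control plates 1 to 4, a log2 ratio of -0.89. No deleted plate reached the control range for either gene. Among the 71 listed genes outside the set, these were the 2 with every deleted plate below. The share was 2.60% of the 9764 genes at 5 CPM or more, so this count alone does not set them apart. They were read in few cells, Man2a1 in 9 deleted and 16 control cells and Man2a2 in 26 deleted and 29 control cells. With 1 plate left out the log2 ratio of Man2a1 lay between -2.56 and -1.55 and that of Man2a2 between -0.99 and -0.78.

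The further branching genes named by size overlapped between hosts. Mgat2, which starts the branch on the second arm, had 116 CPM in deleted hosts and 152 CPM in control hosts, a log2 ratio of -0.38. Fut8, which adds fucose to the core of the chain, had 36.2 CPM in deleted hosts and 19.0 CPM in control hosts, a log2 ratio of 0.89. Mgat3, Mgat4c and Mgat5b had no reads in either pool, and Mgat4b, the other gene that makes the Mgat4a branch, had 2.37 CPM in deleted hosts and 4.10 CPM in control hosts. Mgat4a was therefore the form of this enzyme that held most reads in each pool, without regard to exon length. Its exons span 12.9 kilobases and those of Mgat4b 2.72 kilobases. Over both pools Mgat4a had 3.04 CPM per kilobase and Mgat4b 1.20. In control hosts alone Mgat4a had 1.20 CPM per kilobase and did not stand above Mgat4b.

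**Figure D4:**
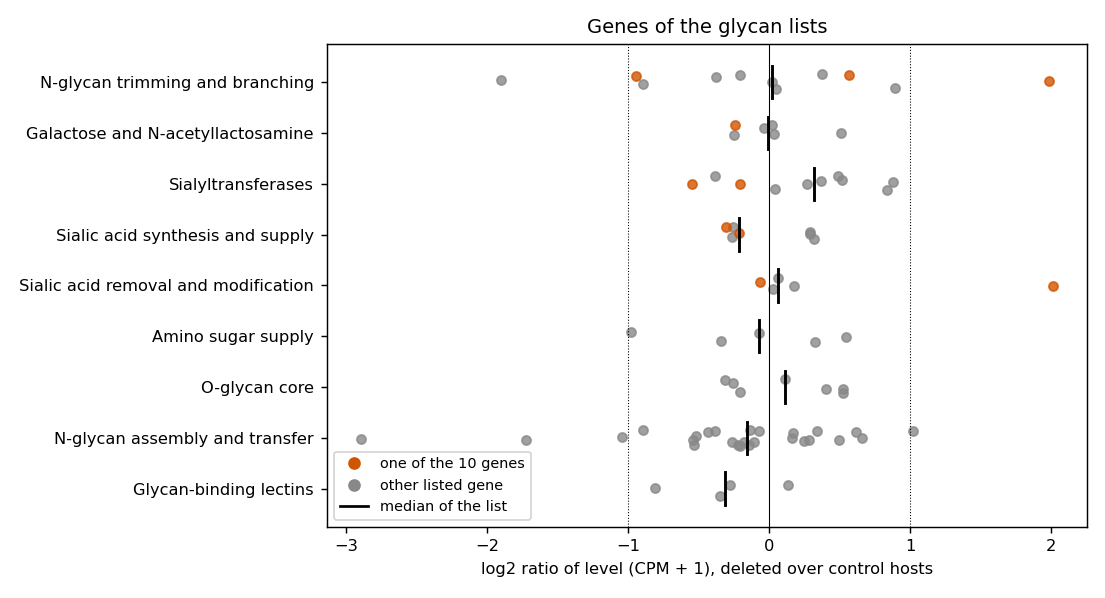
Log2 ratio of level (CPM + 1) in deleted over control hosts for the 81 measured genes of 9 lists, 1 point a gene, with the 10 genes in orange and the median of each list as a black line; dotted lines mark 2-fold. List medians lie between -0.31 and 0.32, and the 2 orange points beyond 2-fold are Mgat4a and Siae.

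Sialyltransferases had a list median of 0.32, with 7 of 10 measured genes higher and 3 lower in deleted hosts and none past 2-fold. Leaving out deleted plate 1 gave a median of 0.16, leaving out control plate 2 gave 0.17 and leaving out deleted plate 3 gave 0.20. Over the 8 genes at 20 CPM or more it was 0.15. St3gal6 had 37.1 CPM in deleted hosts and 19.7 CPM in control hosts, and St8sia4, which builds chains of sialic acid, had 27.8 CPM in deleted hosts and 15.2 CPM in control hosts, all with overlapping plates. Of the sialic acid supply genes, Gne, which starts the synthesis, had 53.8 CPM in deleted hosts and 64.6 CPM in control hosts, and Cmas, which activates sialic acid, had 100.1 CPM in deleted hosts and 120 CPM in control hosts. The partners of Siae and Neu1 stayed near equal: Casd1 had 33.1 CPM in deleted hosts and 31.6 CPM in control hosts, and Ctsa, which protects Neu1 in the lysosome, had 446 CPM in deleted hosts and 395 CPM in control hosts.

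Of the lists that feed or precede branching, the 26 genes of N-glycan assembly and transfer had a median of -0.16. Of these, 1 gene was 2-fold or more higher (Alg13) and 3 were lower (Alg2, Alg10b and Alg14). Among the 9764 genes at 5 CPM or more, the shares were 5.98% and 6.71%. Alg13 had 5.77 CPM in deleted and 2.34 CPM in control hosts, and Alg10b 0.02 CPM in deleted and 6.59 CPM in control hosts. Alg2 was positive in 8 deleted and 13 control cells, and Alg14 in 2 deleted and 14 control cells. Alg11, a mannosyltransferase of the precursor, was the only other of the 81 genes with every deleted plate above, at 40.5 CPM in deleted hosts (plates 36.5 to 42.7 CPM) and 25.3 CPM in control hosts (plates 6.11 to 36.3 CPM). The gap between the nearest plates was small, and the log2 ratio of 0.65 was 0.35 without control plate 2. Pgm3, of amino sugar supply, had 11.7 CPM in deleted hosts and 23.9 CPM in control hosts from 10 deleted and 8 control cells. Among genes of O-glycan core synthesis, Galnt6 had 332 CPM in deleted hosts and 414 CPM in control hosts, and 4 of 7 measured genes were higher and 3 lower in deleted hosts. Among those of galactose and N-acetyllactosamine, B4galt3 had 99.1 CPM in deleted hosts and 69.2 CPM in control hosts, and B3gnt2, which extends branches with N-acetylglucosamine, had 323 CPM in deleted hosts and 331 CPM in control hosts. The galectin Lgals9 had 263 CPM in deleted hosts and 335 CPM in control hosts, Lgals1 63.2 CPM in deleted hosts and 76.9 CPM in control hosts, and Lgals4 32.1 CPM in deleted hosts and 57.2 CPM in control hosts, with overlapping plates for each.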

How the data were processed

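Single CD4 T cells were measured by SmartSeq2, with 25 PCR cycles per the labels' protocols. The files the authors deposited hold raw counts of reads in whole numbers for each gene in each well of 8 plates. Counting used featureCounts 2.0.1 on build mm10, per the submitters' processing notes. Aligner, annotation, strand setting and the handling of reads with several matches: not given in the sources used here. No molecular identifiers are named, so PCR copies count as reads.

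Counts were summed over the 92 cell wells of each plate and over each pool and scaled to reads in genes (CPM). All cell wells were kept, except that the score used wells with 10000 reads or more. The 32 control wells entered no comparison. With 1 pooled sample per group no test was run. Levels have exact Poisson and shares exact Clopper-Pearson 95% intervals. The pseudocount was 1 CPM. Positive calls needed 10 CPM and 5% of the plate mean. The rule for the plates was also run on simulated plate counts. These did not copy genes whose reads lie in a few cells, so nothing is read from that run.

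The 10 genes and all lists were chosen with earlier results of these data known. Named were the 10 genes, up to 4 further genes per list with the largest log2 ratio at 20 CPM or more, and the 3 genes most correlated with Mgat4a, Siae and Cmah; list genes past 2-fold, or named with low values, were added after their values were seen, as were Tbrg1 and Trim14. Trac and Trbc2, also listed as CD4 T cell markers, had no gene row under these names, so 7 of the 9 listed were measured. Python 3.11.15, numpy 2.4.6, pandas 2.3.3, scipy 1.17.1 and R 4.3.3 were used, with edgeR 4.0.16 and DESeq2 1.42.0 for alternative scaling factors. The alternatives were other scalings, pseudocounts, minimum levels, positive calls and scores, equal weight per cell, thinning to 500000 reads, and leaving out high cells, shallow wells or each plate.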

Additional observations from a re-analysis of the deposited data

Results flagged for a closer look

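Wells with names ending in mBM100, which the labels do not explain and which entered no comparison, held reads of 9 of the 10 genes beyond both 3 reads and the highest noinput or dw well in the median well. These wells were far deeper than the noinput and dw wells, so more reads in them need not mean a higher level. Over the 10 wells the level was 113 CPM for B4galt1, 105 CPM for Neu1, 88.0 CPM for Nans and 86.4 CPM for Mgat1. It was 28.9 CPM for Mgat5, 24.9 CPM for Mgat4a, 24.4 CPM for St3gal1, 19.3 CPM for Cmah and 18.2 CPM for St6gal1. Over the noinput and dw wells, from 4 to 13 reads a gene, the level was higher for 8 of these 9 genes, such as 58.3 CPM for Mgat4a and 81.6 CPM for Cmah, and it was 93.2 CPM for Neu1. Siae had a median of 1 read in the mBM100 wells and 0 reads in the noinput and dw wells.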

How the results depend on the processing

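Of 512 alternative values for 59 results, 325 stayed within the spread or interval they were compared with and 186 moved further. The log2 ratio of Mgat4a for the resting over the activated end turned to -0.27 with the activated list alone. Of 410 alternative values of differences and log2 ratios, 45 had the other sign, most of them of list medians and other values near 0. Among them were the log2 ratios of St6gal1 and Neu1, at up to 0.04 and 0.07 with a plate left out, and the share differences of B4galt1, at -3.26 percentage points, and Siae, at 0.82, both with positive at 100 CPM. Over 16 alternatives each, the log2 ratio of Mgat4a lay between 1.71 and 2.84, with all deleted plates above in 16. That of Siae lay between 1.62 and 2.38, with all deleted plates above in 14. The count of genes with all deleted plates above was 1 (Mgat4a) without the highest cell and without the 3 highest cells of each pool. In these 2 settings 1 gene (Mgat1) was 2-fold or more lower. With 1 plate left out in turn, that count ran from 0 to 1, and the count with all deleted plates below from 0 to 1, which was Mgat1 without control plate 1 and Cmah without control plate 4. Positive at 1 CPM or more, 6 genes had a higher share in deleted hosts, against 3 as reported. With the score over the activated list alone, the Cmah share was higher at the resting end on 4 plates, against 7. The cause was not tested. Other scalings moved the median of all genes by 0.02 (TMM) and 0.03 (DESeq2). Thinning left out 4 deleted and 2 control cells.

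The alternatives without the 3 highest cells and with positive at 100 CPM were chosen after seeing the data. No paired analysis was possible because each group was 1 pooled sample. The values of Mgat4a and Siae rest on 8 to 23 positive cells in each pool.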
